A study of Mus musculus with 2 samples.

Results

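The regions described here are the islands of H3K27me3, stretches of called enrichment, that lay whole within the bodies of protein-coding genes in dividing cells of the mouse incisor pulp. They were chosen by their measured width and height and by position: autosomal islands up to 20 kb wide, with a summit height under 40, inside a protein-coding gene and more than 1 kb from both ends of every protein-coding gene of the RefSeq table. By this rule 2350 of 10421 autosomal H3K27me3 islands (22.6%) were members, and 11341 islands were called on all chromosomes. They lay in 1239 host genes, which is 6.0% of the 20665 autosomal protein-coding genes, and 9 members lay in a pair of overlapping genes.

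The cells came from the incisor pulp, the soft connective tissue core of a tooth that erupts throughout life. Mice of the CD1 strain, at postnatal day 5, had received a single intraperitoneal dose of EdU, a thymidine analogue, of 3.3 µg per g, and tissue was collected 24 h later. EdU+ cells, those that had copied DNA after the injection or descended from such cells, were flow sorted and used for chromatin immunoprecipitation with sequencing. Both groups share this treatment: 1 library for H3K27me3 and 1 for H3K4me3, with no input track used here.

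H3K27me3 is trimethylation of lysine 27 of histone H3, written by the EZH1 or EZH2 subunit of Polycomb repressive complex 2 and bound by Polycomb repressive complex 1. It is best known from CpG-rich promoters of developmental genes that are silent or poised, from which it can spread over flanking chromatin. H3K4me3 marks promoters that are active or poised, so an H3K4me3 island away from the annotated ends of a gene often lies at an alternative promoter, and a promoter with both marks is called bivalent. Within gene bodies H3K27me3 can lie at such internal promoters, at enhancers and over transcribed sequence of silent genes.

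With 1 library per mark there was no replicate spread and no test between groups. Every interval below is an exact 95% interval that covers counting over islands, genes or listed starts only. The files hold called islands with a summit height in the authors' units and no reads, so the depth behind each island is unknown. Heights were read within a mark only. The cells' identity was checked on autosomal marker genes through H3K4me3 at the gene ends: it lay at 13 of 13 genes of pulp and dental mesenchyme, 3 of 7 of odontoblasts, 5 of 8 of epithelium, 2 of 8 of endothelium, 1 of 8 of blood and 4 of 7 of nerve and glia. Over all autosomal protein-coding genes the share was 59.7%, near those of epithelium (62.5%) and of nerve and glia (57.1%). H3K27me3 lay at an end of 11 of the 13 pulp genes and of 7 of 7 of nerve and glia, so most of the pulp genes carried both marks. It lay at 1 of 7 genes of odontoblasts, 3 of 8 of epithelium, 4 of 8 of endothelium and 1 of 8 of blood, against 22.4% of all genes. Of these marker genes, Ibsp and Erg alone held members. The part of other cell types in the results was not tested.

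Start sites inside members are shown first, because members that held one overlapped H3K4me3 more often than the rest. A listed transcription start of the host lay inside 203 of the 2350 members (8.64%), 251 starts of 193 genes in all. The RefSeq promoter table gave starts with 1 strand for 955 of the 1239 hosts, which hold 1802 of the members. In a host without an entry no start could be found, so 8.64% may be too low. The promoter windows below are from RefSeq (GRCm38.p6, the assembly called mm10), 250 bases before to 50 after the start, read 5′ to 3′ on the gene's strand, with each CpG dinucleotide in capitals. They are 3 windows with an H3K4me3 island over the start and 3 in members without H3K4me3, each set taken from the members with the highest summits. Where a member held several starts, the window with the most CpG is printed. Celf2 encodes an RNA-binding splicing regulator, Kcnk2 a background potassium channel, Fgf12 an intracellular fibroblast growth factor homologue that binds sodium channels, Kcnj3 a G-protein-gated potassium channel, Zbtb8b a zinc finger protein and Myt1l a neuronal zinc finger factor.
Fgf12: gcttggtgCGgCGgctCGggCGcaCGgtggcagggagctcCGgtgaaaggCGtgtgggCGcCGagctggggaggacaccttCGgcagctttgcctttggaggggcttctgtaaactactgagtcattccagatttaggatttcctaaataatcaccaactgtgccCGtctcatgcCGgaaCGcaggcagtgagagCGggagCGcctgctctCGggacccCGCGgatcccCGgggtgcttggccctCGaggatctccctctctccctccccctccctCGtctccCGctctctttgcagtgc
Kcnk2: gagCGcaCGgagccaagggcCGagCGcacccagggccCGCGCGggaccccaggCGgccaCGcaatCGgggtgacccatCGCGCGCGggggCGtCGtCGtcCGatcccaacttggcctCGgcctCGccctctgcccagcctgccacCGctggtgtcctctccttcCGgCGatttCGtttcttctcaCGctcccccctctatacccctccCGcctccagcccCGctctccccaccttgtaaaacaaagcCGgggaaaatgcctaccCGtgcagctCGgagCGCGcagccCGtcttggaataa
Celf2: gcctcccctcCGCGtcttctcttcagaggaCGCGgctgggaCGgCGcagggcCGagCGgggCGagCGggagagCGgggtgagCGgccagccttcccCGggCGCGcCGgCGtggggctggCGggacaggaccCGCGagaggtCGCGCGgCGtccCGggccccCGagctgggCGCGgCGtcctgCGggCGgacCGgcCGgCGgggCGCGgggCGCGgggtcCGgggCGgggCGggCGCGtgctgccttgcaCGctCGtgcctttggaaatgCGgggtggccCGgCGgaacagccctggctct
Kcnj3: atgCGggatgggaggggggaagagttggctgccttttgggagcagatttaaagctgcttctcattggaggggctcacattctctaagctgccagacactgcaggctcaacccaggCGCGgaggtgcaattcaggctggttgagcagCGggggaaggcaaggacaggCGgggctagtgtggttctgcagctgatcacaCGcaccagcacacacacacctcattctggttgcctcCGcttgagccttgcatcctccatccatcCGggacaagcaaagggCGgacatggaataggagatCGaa
Zbtb8b: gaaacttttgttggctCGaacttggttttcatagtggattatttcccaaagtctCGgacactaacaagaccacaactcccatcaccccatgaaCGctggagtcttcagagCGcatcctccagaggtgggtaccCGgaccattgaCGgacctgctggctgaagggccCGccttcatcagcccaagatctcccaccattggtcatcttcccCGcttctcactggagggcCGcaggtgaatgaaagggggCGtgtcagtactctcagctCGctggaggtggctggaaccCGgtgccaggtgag
Myt1l: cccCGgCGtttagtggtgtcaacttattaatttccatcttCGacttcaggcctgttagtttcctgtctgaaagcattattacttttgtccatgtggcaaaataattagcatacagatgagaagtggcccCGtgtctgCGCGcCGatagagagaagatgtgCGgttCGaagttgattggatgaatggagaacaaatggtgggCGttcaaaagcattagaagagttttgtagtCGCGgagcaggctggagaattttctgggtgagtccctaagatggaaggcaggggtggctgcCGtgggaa

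The 3 windows under H3K4me3 held more CpG dinucleotides than the 3 without it. CpG took part in their choice, so these windows are examples only. Celf2 was printed ahead of Pacsin1 (33 CpG), Igsf11 (25) and Rap1gap (22), whose members had the same height. Myt1l was printed likewise ahead of Atp2b2 (12). Nor does the difference hold for every start: another start of Kcnk2, at 189344192 under the same H3K4me3 island, had 3. Fgf12 (chr16:28446026-28446325, minus strand) held 22, Kcnk2 (chr1:189343304-189343603, minus strand) 33 and Celf2 (chr2:6871986-6872285, minus strand) 48. Their H3K4me3 islands had heights of 55, 64 and 78, and the members around them H3K27me3 heights of 39, 38 and 37. Kcnj3 (chr2:55435720-55436019, plus strand) held 10 CpG, Zbtb8b (chr4:129440769-129441068, minus strand) 12 and Myt1l (chr12:29534972-29535271, plus strand) 13, in members of nearly equal height, 38, 37 and 36. At Fgf12, Kcnk2 and Celf2 the printed start is a further start downstream of the outermost of 4, 4 and 5 listed starts and at Myt1l it is likewise a further start of 5. At Kcnj3 and Zbtb8b it is the only listed start, while the RefSeq gene table places the 5′ end of the gene farther out. The member of Kcnj3 began 21.2 kb from that end and the member of Zbtb8b 3.17 kb.

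The same contrast held over all 251 internal starts, as a description with no test. An H3K4me3 island lay over 135 of them (53.8%). Those windows held a median of 21 CpG per 300 bases (interquartile range 13 to 33), and 83.0% of them (75.5 to 88.9%) held 10 or more. The 116 starts without H3K4me3 held a median of 7 (4.75 to 10), and 29.3% (21.2 to 38.5%) held 10 or more. The 251 starts lay in 203 members. Some lie so close together that their windows overlap, and the intervals count each start as separate. Over all 20085 listed starts of autosomal protein-coding genes the median was 14, and 57.9% held 10 or more. CpG (the letters CG, the same on both strands) was counted, and a high count is a feature of the sequence, not a site of any factor. Of the 251 starts, 80 were the outermost listed start of their gene and 59 the only one, so some members cover what the promoter table gives as the main start while the gene table places the end farther out. H3K4me3 lay over 52.5% of the outermost starts and 54.4% of the further starts downstream.

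Members were low and narrow, as the limits of the rule require, and sat close to other H3K27me3 islands. Their median width was 5.6 kb (interquartile range 4.2 to 7.6 kb), their median height 11 (9 to 14) and their summed length 15 Mb. The 2933 islands of the same limits at gene ends were higher, with a median height of 15 (11 to 23) and a width of 6.2 kb, while the 3593 islands outside protein-coding genes had the members' median height of 11 and a width of 5.4 kb. The gap from a member to the next H3K27me3 island was 9.4 kb at the median, and 960 members (40.9%) had one within 5 kb. The gap was 9.0 kb for islands outside genes and 41.8 kb for those at gene ends. The nearest island was another member for 1305 members (55.5%) and an island at a gene end for 816 (34.7%), and for 1922 (81.8%) it lay in or on the same gene. For 291 members (12.4%) the gap was the smallest between any of these islands, 801 bp. The caller joins enriched windows over gaps up to a set length, so members this close would be 1 island under a longer setting.

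The members nearest to the limits of the rule were as follows. Members of height 39, the highest possible, lay in Dlgap3, Cux2, Trp73, Adgrb1, Pld5, Pde4c, Gm50595 and Fgf12, and islands just outside, at 40, in Xkr6, Taf3 and Cacna1a. The widest member was 19.8 kb, in Lmo3, and the narrowest islands left out for width were 20.2 kb in Pgm5 and 20.4 kb in Eipr1 and Bmpr1b. The member closest to a gene end lay 1002 bp from it, in Ptger4. Inside gene bodies 71 islands reached the height limit and 81 exceeded the width limit.

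Host genes were long. Their median length was 93.7 kb (87.7 to 101 kb) against 17.5 kb for all autosomal protein-coding genes, and part of this follows from the rule, since a long gene has more room away from its ends. Members were therefore also counted by length class. A member was found in 0.123% of genes under 10 kb, 3.12% of those of 10 to 30 kb, 9.14% of those of 30 to 100 kb, 21.0% of those of 100 to 300 kb and 41.1% (36.9 to 45.4%) of those over 300 kb. Per Mb of sequence more than 1 kb from the ends, the density was 2.07, 2.42, 2.85 and 2.35 members in the 4 classes from 10 kb upward and 0.493 under 10 kb. From 10 kb upward, the share of genes with a member thus climbed with length in every step, while the density did not.

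**Figure D1:**
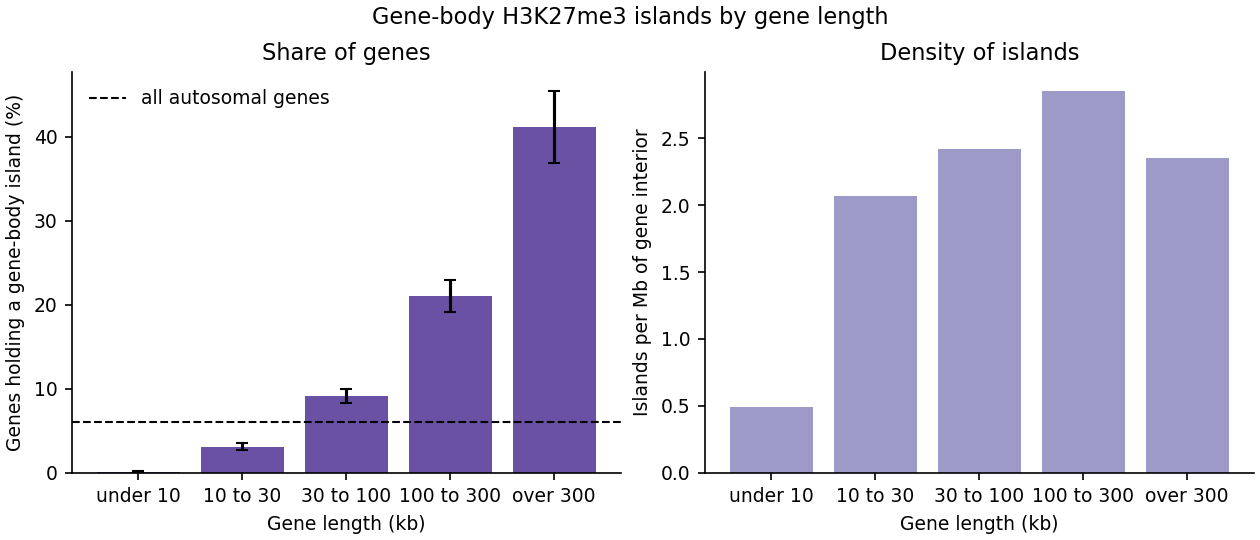
Left, percent of autosomal protein-coding genes that hold a gene-body H3K27me3 island by gene length (kb), with exact 95% intervals and all genes (6.0%) as a dashed line; right, islands per Mb of gene interior. The share climbs to 41.1% in genes over 300 kb, while the density stays between 2.07 and 2.85 per Mb in the classes from 10 kb upward.

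Most host genes held a single member, and a small group held many. There was 1 member in 783 hosts (63.2%), at least 2 in 456 (36.8%), at least 5 in 80 (6.46%) and at least 10 in 19. The 80 hosts of at least 5 had a median length of 333 kb and held 26.9% of the placements of members in genes. Each member island is a separate call from the same library, so members of a gene are not replicates.

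The genes with the most members were regulators of transcription and splicing, channels and adhesion genes. Camta1, which encodes a calmodulin-binding transcription activator (chromosome 4, 151059523 to 151861768), held 20 members over 802 kb, with heights of 8 to 30 and widths of 3.0 to 19 kb that summed to 18.3% of the gene. Rbfox3, which encodes the neuronal splicing regulator NeuN, and Asic2, which encodes an acid-sensing ion channel, held 16 each. In Rbfox3 they covered 22.5% of 422 kb, in Asic2 8.65% of 1088 kb. Kirrel3, an immunoglobulin-family adhesion gene, and Foxp1, a forkhead factor gene, held 15 each, and Sox6, Npas3, Cdh4 and Nfia 14 each. Ebf1, which encodes a helix-loop-helix factor of mesenchyme and B cells, had the densest cover of these 10 genes, with 13 members over 30% of its 390 kb.

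Members in these genes came in runs and were nearly all free of H3K4me3. The median gap between neighbouring members was 3.8 kb in Ebf1 and 4.2 kb in Foxp1, but 52.6 kb in Asic2 and 39.8 kb in Npas3. Along Camta1 10 of the 20 members lay in the 5′ 50% of the gene, in Asic2 12 of 16 and in Foxp1 2 of 15. H3K4me3 overlapped 1 member each in Camta1, Asic2 and Foxp1 and 0 in the other 7 of the 10 genes. Wider or higher H3K27me3 islands, or islands at the ends, which the rule leaves out, lay between the members or beside them in all 10 genes, from 1 in Kirrel3 to 6 in Ebf1. Camta1 alone of the 10 had no H3K27me3 at either end and had H3K4me3 at both.

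**Figure D2:**
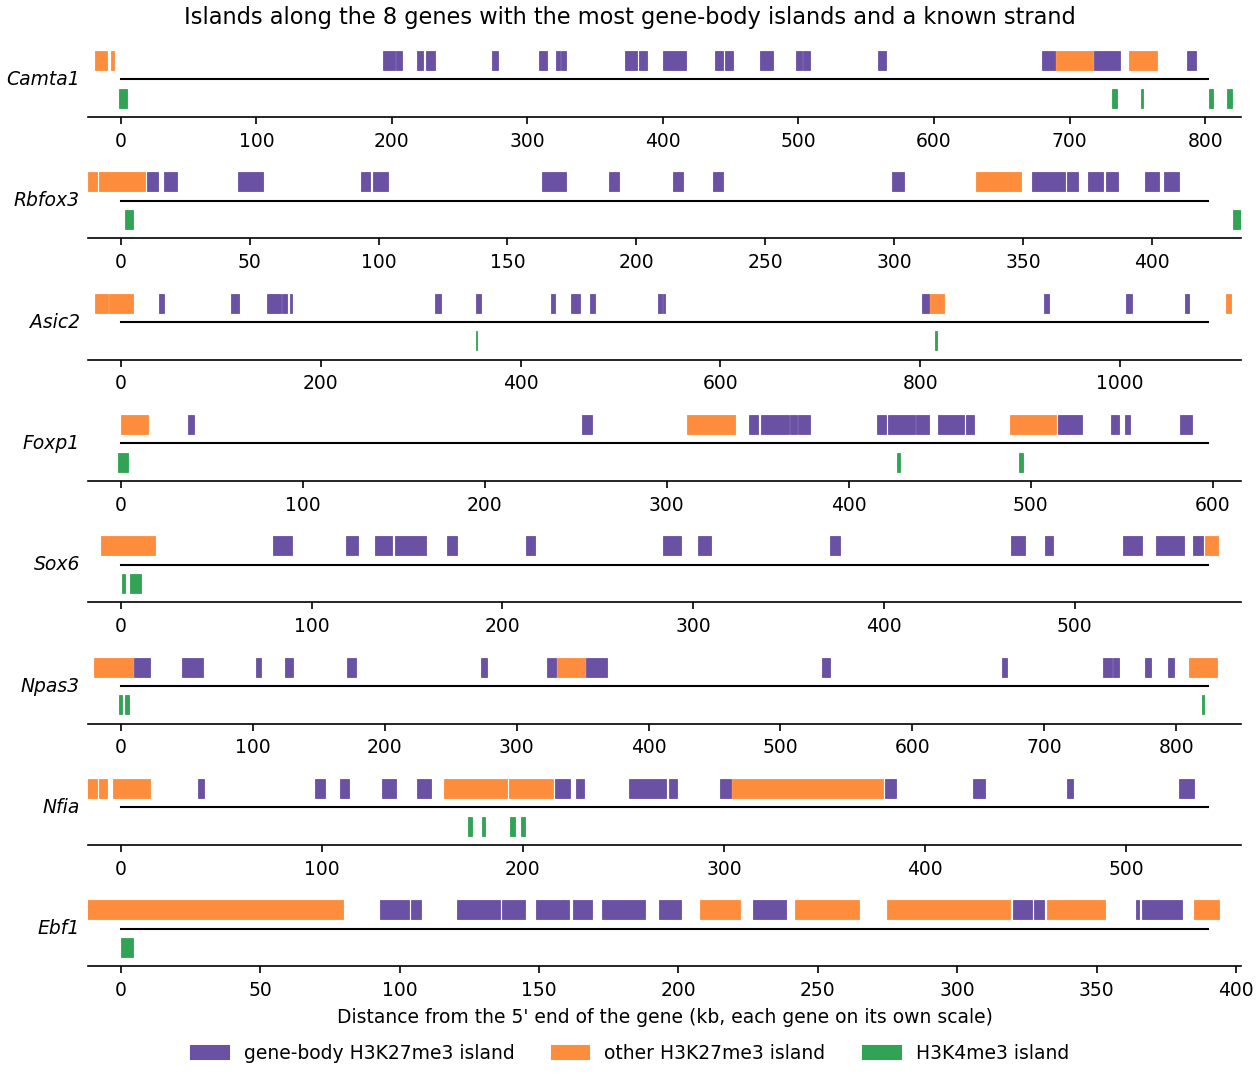
Islands along the 8 genes with the most members among those whose strand is listed; the axis is the distance from the 5′ end of the gene (kb, a separate scale for each gene), and bars are gene-body H3K27me3 islands, other H3K27me3 islands and H3K4me3 islands. Members form runs, as in Ebf1 and Foxp1, and H3K4me3 overlaps 1 member each in Camta1, Asic2 and Foxp1 and 0 in the others.

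Longer genes did not always hold more. The longest host, Lsamp (2197 kb), a neural adhesion gene, held 1 member, Dlg2 (1973 kb), which encodes a synaptic scaffold, 6, Csmd1 (1643 kb) 2, Nrxn3 (1612 kb), a presynaptic adhesion gene, 2, and Fhit (1612 kb) 1. At Lsamp the single member, 5.6 kb wide with a height of 14, overlapped H3K4me3. Short hosts could be covered for most of their length: at Pde4c, a phosphodiesterase gene of 27.4 kb, 2 members covered 62.9% of the gene, and at Dlgap3, a postsynaptic scaffold gene of 68.7 kb, 3 members covered 56.5%. The widest members lay in Lmo3, a LIM-only factor gene (19.8 kb), Anks1b and Slc9a9 (19.6 kb each), Akap6 (19.4 kb) and Dnah8 (19.2 kb).

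Position along the gene could be read for the 955 hosts (77.1%) with a strand in the promoter table, which hold 1802 members. Members were spread over the whole gene body. From the 5′ end, the 5 equal stretches of the gene held 17.4%, 23.5%, 22.9%, 21.1% and 15.1% of members by their centres, and the rule itself thins both outer stretches. In hosts of 100 kb or longer the shares were 19.9%, 22.5%, 21.6%, 18.7% and 17.3%. The median distance was 55.8 kb to the 5′ end and 63.7 kb to the 3′ end, and 15.1% of members lay within 10 kb of the 5′ end.

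Overlap with H3K4me3 did vary along the gene. It was found at 25.2% (20.5 to 30.4%) of the members in the 5′-most of the 5 stretches, between 13.9% and 16.3% in the middle 3 and at 7.72% (4.84 to 11.6%) in the 3′-most. Listed starts of the host moved with it, from 17.9% of members in the 5′-most stretch to 2.94% in the 3′-most. Median heights were 10.5 to 11 in all 5.

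The ends of host genes carried H3K27me3 far more often than the ends of other genes. An H3K27me3 island of any size, which cannot be a member, lay within 1 kb of an end in 777 hosts (62.7%, 60 to 65.4%), against 22.4% of all autosomal protein-coding genes. Since longer genes differ, the shares were also taken by length class. Between 30 and 100 kb, 63.5% (58.8 to 67.9%) of hosts had it against 20.2% (19 to 21.4%) of genes without a member, and between 100 and 300 kb 70.9% against 25.5%. The intervals did not overlap in these classes or between 10 and 30 kb, where the shares were 45.5% and 19%. Over 300 kb the shares came closer, 63.9% (57.2 to 70.3%) and 49.0% (43.4 to 54.7%), though the intervals still did not overlap. Under 10 kb there were only 9 hosts. Members and end islands come from the same library, so this is a relation within 1 set of islands, and depth and mappability that act on both were not tested.

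The mark at host ends lay mostly at the 5′ end and increased with the number of members. Among hosts with a listed strand H3K27me3 lay at the 5′ end in 55.5% (52.3 to 58.7%) and at the 3′ end in 15.2% (13 to 17.6%). It lay at an end in 55.4% (51.9 to 58.9%) of hosts of 1 member, 72.9% (68.1 to 77.3%) of hosts of 2 to 4 and 86.2% (76.7 to 92.9%) of hosts of 5 or more. These groups also differ in length, with medians of 70 kb, 137 kb and 333 kb. Among genes of 30 kb or longer, the end islands of hosts had a median width of 10.6 kb and height of 30.5, against 7.2 kb and 19 in genes without a member.

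A limit of these shares is that the gene table's ends include the outermost predicted transcripts. The outermost start of the promoter table lay within 1 kb of a gene end in 72.9% of hosts and 90.0% of all genes with a listed start. Genes of 30 kb or longer whose listed start is at the gene end were also taken alone. H3K27me3 lay within 1 kb of that start in 63.2% (59.1 to 67.2%) of hosts and 20.2% (19 to 21.4%) of genes without a member. The difference was thus as large where both tables give the same start.

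**Figure D3:**
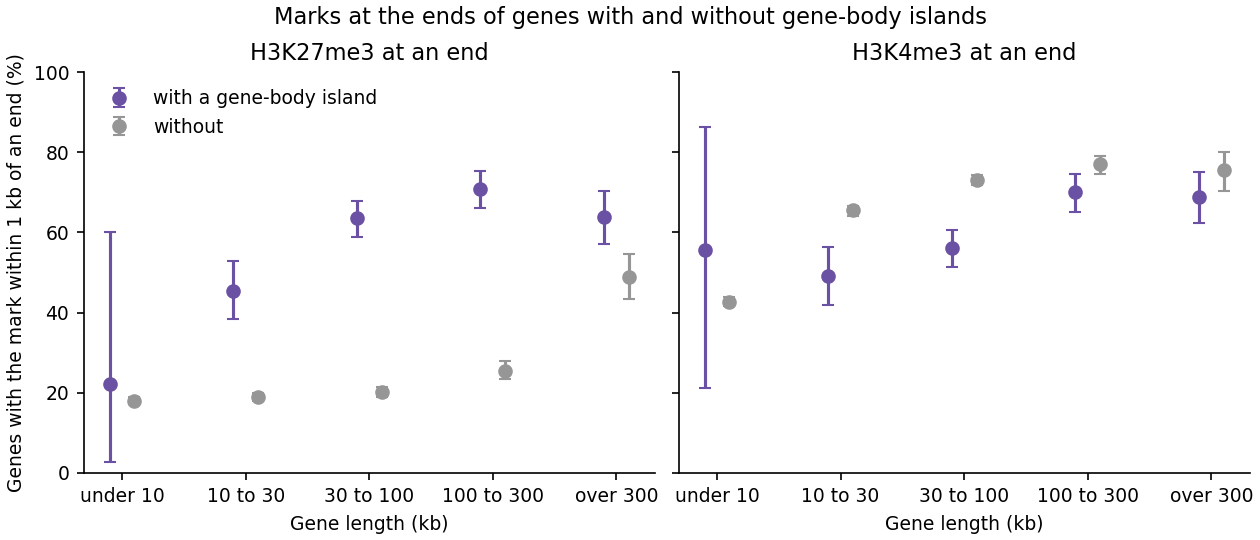
Percent of genes with H3K27me3 (left) or H3K4me3 (right) within 1 kb of an annotated end, by gene length (kb), for genes with and without a gene-body H3K27me3 island; bars are exact 95% intervals. H3K27me3 is more frequent at ends of genes with a member in each class from 10 kb upward (70.9% against 25.5% at 100 to 300 kb), while H3K4me3 is somewhat less frequent (70.1% against 77.0%).

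H3K4me3, from the library that the rule did not use, lay at an end of 762 hosts (61.5%, 58.7 to 64.2%), against 59.7% of all genes. Within the length classes from 10 kb upward it was less frequent in hosts: 56.1% (51.3 to 60.7%) against 73.1% (71.8 to 74.4%) from 30 to 100 kb, and 70.1% (65.1 to 74.7%) against 77.0% (74.7 to 79.2%) from 100 to 300 kb, where the intervals touched. Over 300 kb the intervals overlapped, at 68.9% and 75.5%. When H3K4me3 anywhere in the gene was counted, hosts had it less often from 30 to 100 kb (70.4% against 78.2%), and the shares were 87.2% and 85.6% from 100 to 300 kb and 89.5% and 83.8% over 300 kb.

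Where hosts did have H3K4me3 at an end, it was lower and usually came with H3K27me3. Among genes of 30 kb or longer, the median height of the end island was 60 (interquartile range 30.5 to 109) in hosts and 127 (81 to 161) in genes without a member. H3K27me3 lay at an end as well in 78.4% (75.1 to 81.5%) of these hosts and 25.3% (24 to 26.6%) of the others. Hosts with H3K4me3 alone had a median height of 111, and the others with H3K4me3 alone 137. Counting only the 50% of H3K4me3 islands with the higher summits, 21.1% of hosts and 52.8% of the others of that length were marked.

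In all, 583 hosts (47.1%, 44.2 to 49.9%) had both marks at their ends, 179 (14.4%) H3K4me3 only, 194 (15.7%) H3K27me3 only and 283 (22.8%) neither. Of genes of 30 kb or longer, 50% (47 to 53.1%) of hosts and 18.7% (17.8 to 19.7%) of genes without a member had both. Members overlapped H3K4me3 least where the ends had H3K27me3, at 11.5% (9.73 to 13.4%) in hosts with both marks and 8.97% (6.48 to 12.0%) in hosts with H3K27me3 only. The shares were 27.4% (22.3 to 33%) in hosts with H3K4me3 only and 25.3% (21 to 29.9%) in hosts with neither. Median member height was 11 in all 4 kinds of host. The hosts with neither mark at an end included Celf2, Kcnk2, Kcnj3 and Zbtb8b, whose internal starts are printed above.

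H3K4me3 overlapped 357 of the 2350 members (15.2%, 13.8 to 16.7%), fewer than the 36.1% of all autosomal H3K27me3 islands. The share fell to 4.21% when only the 50% of H3K4me3 islands with the higher summits counted. Of islands within the same limits of width and height, 69.6% (67.9 to 71.3%) overlapped it at gene ends and 6.18% (5.41 to 7.02%) outside protein-coding genes, so members stood between these sets. The H3K4me3 islands on members were low and small, with a median height of 42 (20 to 97) and width of 3.0 kb, against 93 and 3.6 kb over all autosomal H3K4me3 islands. All H3K27me3 islands and all H3K4me3 islands include those at gene ends, where no member can lie. Part of both contrasts therefore follows from the rule. For 39 of the 357 the H3K4me3 island reached to within 1 kb of a host end, and these were high, with a median of 120. The other 318 had a median of 37.

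Listed starts accounted for a part of these overlaps. Members that held a start of the host overlapped H3K4me3 in 57.1% (50 to 64%) of cases, members that held a start of another gene only in 34.7% (23.9 to 46.9%) and the 2075 members without any listed start in 10.4% (9.13 to 11.8%). Of the 357 overlapping members, 216 held no listed start. Only 955 of the 1239 hosts, with 1802 of the members, had starts with 1 strand in the promoter table. Members in a host without an entry could hold no listed start of it. The 216 and the 10.4% thus do not show that these members lie away from starts. Higher members overlapped H3K4me3 more often: the share rose from 6.99% (5.29 to 9.02%) under height 10 to 12.6%, 22.6% and 39.2% in the classes from 10, 15 and 20, and to 49.3% (37.4 to 61.3%) from 30 to 39. A start of the host lay in 4.14% of members in the lowest class and 27.4% in the highest, and the share of members whose host had H3K27me3 at an end was 71.4% in the lowest and 64.4% in the highest. Median width also rose, from 5.0 kb in the lowest class to 10.2 kb in the highest, and its part in the overlap was not tested.

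**Figure D4:**
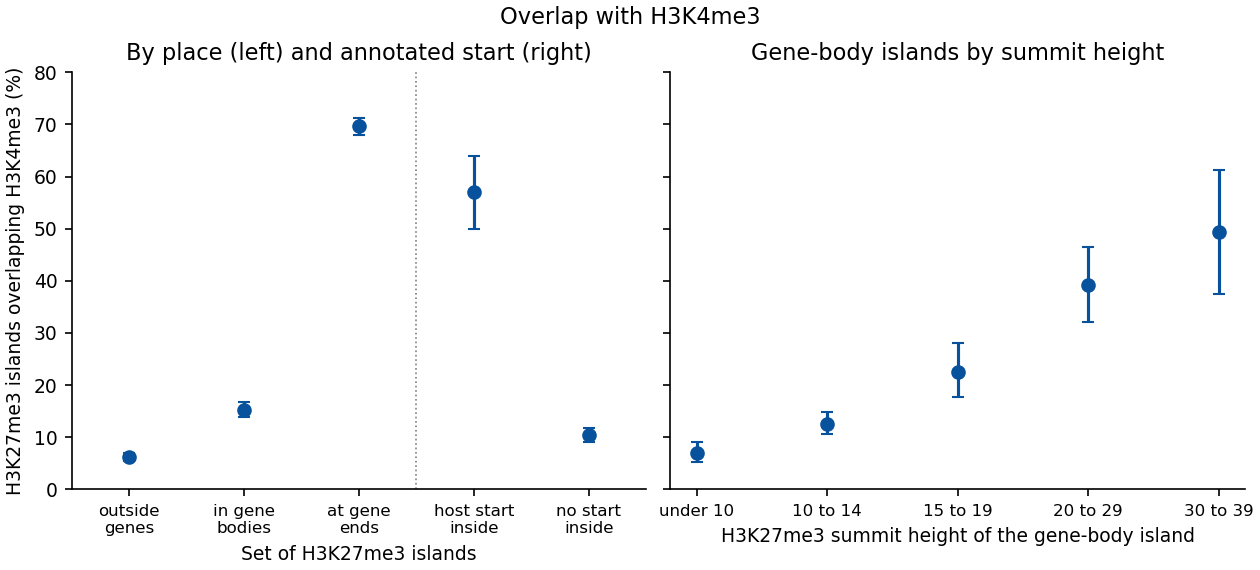
Percent of H3K27me3 islands that overlap H3K4me3, with exact 95% intervals: left, by place in the genome and, for gene-body islands, by whether a listed start lies inside; right, gene-body islands by summit height. Gene-body islands (15.2%) stand between those outside genes (6.18%) and at gene ends (69.6%), and the share rises with height from 6.99% to 49.3%. A host without an entry in the promoter table has no listed start for its islands to hold.

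Of the 8 members under the highest H3K4me3 summits, 6 were narrower than the H3K4me3 island. Their heights ran from 8 to 24, around the median of 11 of all members. At Irs2, which encodes an insulin receptor substrate, a member 4.6 kb wide with a height of 8 lay wholly under an H3K4me3 island of 12.0 kb and height 205 that reached the gene's end. At Ptpn3, a tyrosine phosphatase gene, a 3.6 kb member of height 12 lay wholly under H3K4me3 of height 185, 37.8 kb from the 5′ end and over starts of the neighbouring Gm12536. The others were Gpam (183), which encodes an enzyme of glycerolipid synthesis, Btbd11 (181), Kbtbd11 (178), Agap1 (176), Fnbp1 (172) and the RNA-binding protein gene Msi1 (171), with members of height 9 to 24. The member of Fnbp1, of height 24, held a start of the gene.

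H3K4me3 was found on 3 of the 8 highest members. Of the 8 members of height 39, those in Fgf12, Pld5 and Pde4c overlapped H3K4me3, with heights of 55, 17 and 12. Those in Dlgap3, Cux2, Trp73, Adgrb1 and Gm50595 did not. Fgf12 held a further member (5.4 kb, height 23) that covered 2 listed starts and overlapped H3K4me3 of height 28, so both of its members lay over internal starts with H3K4me3. Its 5′ end had H3K27me3 and no H3K4me3.

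The host genes were then counted in lists of genes by function. In each list the share of host genes is set beside 6.0% of all genes and, since length matters, the share among listed genes of 100 kb or longer beside 25.6% (23.9 to 27.5%) of all such genes. The lists were put together with earlier results of these data known, so the counts describe and support nothing by themselves.

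Transcription factors of mesenchyme and patterning held members most often of the 12 lists, in 32 of 56 genes (57.1%, 43.2 to 70.3%) and in 28 of 42 long genes (66.7%). They held 143 members. Of the Runx factors of bone, blood and nerve, Runx1 held 4 members with heights of 10 to 13, Runx2 1 and Runx3 2, and 1 member of each overlapped H3K4me3. The Runx2 member, 2.8 kb wide with a height of 10, lay wholly under an H3K4me3 island of height 156, 75.6 kb from the 5′ end, and the higher member of Runx3 (height 13) held a start of the gene under H3K4me3 of height 157. In Gli2, a hedgehog effector gene, a 2.2 kb member of height 11 lay wholly under the H3K4me3 island of the 5′ end (height 128). The Runx genes and Gli2 had H3K4me3 and no H3K27me3 at their ends, unlike Sox6, Ebf1 and Foxp1, whose ends had both. Among the 56 genes H3K4me3 lay at an end of 51 and H3K27me3 at an end of 32.

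Genes of neuronal adhesion and excitability were hosts often as well. Synaptic and neural adhesion genes were hosts in 21 of 44 (47.7%, 32.5 to 63.3%), all 21 of 100 kb or longer (51.2% of the long genes). The median length over the list was 747 kb, so the 25.6% of all genes of 100 kb or longer is a low comparison for it. Of all autosomal protein-coding genes over 300 kb, 41.1% (36.9 to 45.4%) were hosts, a share within the interval of this list. The presynaptic genes Nrxn2 and Nrxn3 held 3 and 2 members, and the contactin gene Cntn1 held 1. Sodium and calcium channels were hosts in 12 of 24 (50%, 55.6% of long genes), among them Scn1a (1 member), Scn8a (3) and Scn10a (2). Potassium channels were hosts in 13 of 29 (44.8%, 52.4% of long genes), among them Kcnc1, Kcnd3 and Kcnh5 (1 each).

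Neurotransmitter receptors, guidance genes and cadherins were closer to the share of all long genes. Receptors were hosts in 10 of 37 (27%, 27.6% of long genes), among them the glutamate receptor genes Grik3 (9 members), Grik4 and Grid1 (2 each), although H3K27me3 lay at an end of 33 of the 37. Axon guidance genes were hosts in 14 of 41 (34.1%, 36.4% of long genes). H3K27me3 lay at an end of all 14 hosts and of 32 (78.0%) of the 41 listed genes. Slit1 held 4 members, and Slit3, Ntn1 and Ntng2 1 each, 0 of them under H3K4me3. Cadherins were hosts in 6 of 31 (19.4%, 23.8% of long genes): Cdh4 (14), Cdh13 (12), Cdh23 (5), Cdh22 (4), Fat2 (1) and Pcdh15 (1), again with 0 of 37 members under H3K4me3.

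Among signalling genes the hosts were mostly the long ones. Of 57 genes of the Wnt, hedgehog, BMP, FGF and TGF-beta pathways 11 were hosts (19.3%), but 9 of the 19 of 100 kb or longer (47.4%). The BMP receptor gene Bmpr1b is named for its place at the width limit and held 11 members of height 8 to 15 over 332 kb, with both marks at its ends. Ror1, a Wnt5a receptor gene, held 2 and the R-spondin receptor and stem cell gene Lgr5 1 of height 14. Its relative Lgr6 held 2 and the hedgehog co-receptor gene Boc 1. Fgf13, Dmd, Pola1, Rbbp7 and Kdm6a lie on the X chromosome and were left out of their lists.

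Matrix, muscle, cell cycle and Polycomb genes held between 0 and 6 hosts a list. Collagens and other matrix genes were hosts in 6 of 44 (13.6%, 19.4% of long genes): Col4a1 (1), Col4a2 (4), Col4a3 (2), Col18a1 (1), Col19a1 (2) and Tnr (1). Sarcomere and muscle genes were hosts in 6 of 29 (20.7%, 33.3% of long genes): Ryr1 (2), Myh3 (1), Myh7b (1), Nebl (4), Ldb3 (4) and Sgcd (1). Of 39 cell cycle and replication genes 0 held a member (0 to 9.03%), but only 1 of them is 100 kb or longer, and their median length is 16.1 kb. Of 30 Polycomb and H3K27 genes 2 were hosts (6.67%), near the share of all genes, and 1 of the 4 long ones. Pcgf5, which encodes a subunit of Polycomb repressive complex 1, held a 13.2 kb member of height 35 over a start of the gene and under H3K4me3 of height 100, and a second of height 10. Cbx7, whose product binds H3K27me3, held a member of height 15 that also covered a start and met H3K4me3 of height 92, with neither mark at the ends of the gene.

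**Figure D5:**
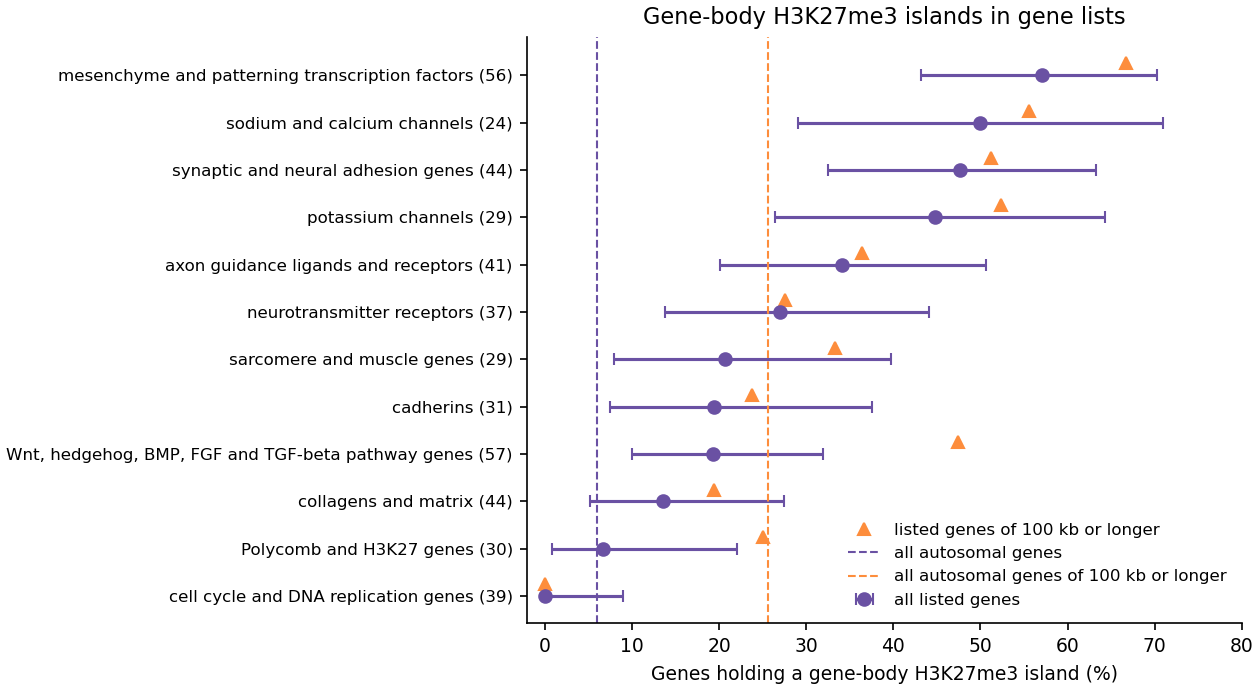
Percent of the genes of 12 lists that hold a gene-body H3K27me3 island, with exact 95% intervals (circles; number of genes in brackets), and of the listed genes of 100 kb or longer (triangles); dashed lines give all autosomal genes (6.0%) and all of 100 kb or longer (25.6%). Mesenchyme and patterning transcription factors stand highest at 57.1% and cell cycle genes at 0.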

How the data were processed

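Chromatin immunoprecipitation was read from called islands, 1 library each for H3K27me3 and H3K4me3. The submitters' processing notes name BWA, SICER and mm10. Tool versions and SICER settings were not given in the sources used here. Each island has an interval and a summit, per the file headers, whose height is a score that the authors deposited as a whole number with no stated scaling between libraries.

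Members were found with Python 3.11.15 (pandas 2.3.3, numpy 2.4.6, scipy 1.17.1, matplotlib 3.10.9). Gene ends came from a RefSeq gene table (GRCm38.p6) that gives 1 start and 1 end per gene and no exons, so exon and intron are not told apart. Strand and starts came from a RefSeq promoter table. A mark was called at an end by overlap of at least 1 bp with 1 kb either side. Intervals are exact (Clopper-Pearson, or order statistics for medians). The counting steps were tested on simulated data.

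The members, lists and tests were chosen with earlier results of these data known. Genes are named as hosts of the most members (10), of the 8 highest, the 5 widest and the 8 with the highest H3K4me3, as the 5 longest hosts, as the members nearest to each limit, and up to 4 hosts per list in list order (all where 6 or fewer). Those under internal starts were chosen by member height and, at equal height, by CpG. Alternatives planned were other limits, end windows, merging, minimum overlap and higher summits. A further 2 were added after seeing the data. X and Y were left out. A few hosts named by this rule are not reported here.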

Additional observations from a re-analysis of the deposited data

How the results depend on the processing

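Of 44 alternatives to 7 results, 28 stayed within the interval of the value reported or within 1.5 times a count. Keeping only members at or above the median height of 11 left 1251 islands in 821 genes, with a median host length of 113 kb, 72.4% of hosts with 1 member and 21.7% of members overlapping H3K4me3. Keeping only members clear of the ends of every annotated gene gave 65.9% of hosts with 1 member and an overlap of 13.3%. End windows of 2.5 kb gave H3K27me3 at an end of 70.3% of hosts and H3K4me3 at 65.7%. H3K4me3 lay at an end of 20.7% of hosts and on 4.21% of members when only higher-summit H3K4me3 islands counted, and in 77.3% of hosts when it counted anywhere in the gene. Overlap with H3K4me3 was 16.9% with members of all heights, 13.5% with members more than 2.5 kb from gene ends, 13.4% when 50% of the shorter island had to be shared and 13.6% without H3K4me3 islands at host ends. The last of these, and H3K4me3 anywhere in the gene, were added after seeing the data; beyond the construction of each alternative the cause was not tested. No paired analysis was possible because there is 1 library per mark and the labels carry no replicate numbers. Depth is unknown, so places described here as without or free of a mark are places where no island was called. The mark itself may still be present there. Without an input track mappability and copy number were not tested.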

Other observations

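Noncoding genes lay under 310 of the members (13.2%), long noncoding RNA genes under 270 (11.5%) and miRNA genes under 12 (0.511%). The same shares were not taken over other H3K27me3 islands, so whether these are high or low is not known. The type of the RNA was taken from the gene table, and the overlap says nothing of its transcription.

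Chromosome 19 held the most members for its gene sequence. Its 142 members came to 5.28 per Mb of gene interior and lay in 10.2% of its 705 protein-coding genes, and they were 32.4% of its H3K27me3 islands. The other autosomes ranged from 1.46 members per Mb on chromosome 3, where 4.07% of genes were hosts, to 3.74 on chromosome 4. Median member heights were 10 to 12 on every autosome, and 13.4% of the members on chromosome 19 overlapped H3K4me3, within the range of the other autosomes (10.1 to 22.7%).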
